A study of Mus musculus with 20 samples.

Results

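The genes described here encode the nuclear subunits of the mitochondrial oxidative phosphorylation complexes, with assembly factors that carry the same names. They were taken from the count table by symbol alone (Nduf, Uqcr, Cox followed by a digit, Atp5, and Sdha to Sdhd), leaving out pseudogene and Rik symbols, and no measured value entered the choice. The rule found 101 of 24062 genes. They comprise 36 subunits of complex I, 4 of complex II, 8 of complex III, 11 broadly used and 8 tissue-restricted subunits of complex IV, 16 of complex V (counting the coupling factor Atp5s) and 18 assembly factors. Of these, 98 passed the filter on low counts. Ndufs5 is listed at 0 counts in all 20 libraries, and Cox7b2 and Cox8c, isoforms known mainly from testis, were too low to be tested.

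Complex I oxidises NADH and complex II succinate, and both pass electrons through ubiquinone to complex III, cytochrome c and complex IV, which reduces oxygen. Complexes I, III and IV pump protons across the inner membrane, and complex V, the ATP synthase, lets them flow back through its membrane part (Fo) to drive ATP formation in its soluble head (F1). The core of the machinery is built from the products of both genomes: complexes I, III, IV and V each hold subunits encoded in mitochondrial DNA, which are not analysed here, while complex II is encoded in the nucleus alone. Peripheral nerve uses this ATP for ion pumping in axons, and Schwann cells are known to need the respiratory chain for myelin upkeep.

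The libraries are bulk RNA-seq of mouse nerve tumors on the C57BL/6J background, from mice given no drug. They comprise 4 GEM-PNST (nerve sheath tumors arising in genetically engineered mice), 4 paraspinal tumors, of which 2 form subgroup 2 and 2 form subgroup 1, and 12 neurofibromas. All 20 carry floxed Nf1 (Nf1fl/fl) with DhhCre, which acts in the Schwann cell lineage, so that other cells in a tumor keep Nf1. The GEM-PNST and paraspinal tumors also carry Ink4a/Arf+/-, which the neurofibromas lack. The labels call the paraspinal subgroups sub-clusters, so these may have been drawn from the same expression values. A count over a whole gene does not check the Nf1 or Ink4a/Arf alleles. Whether every library is from its own mouse is not stated, and the deposited names of neurofibroma libraries 8 and 9 share a stem, as do those of GEM-PNST library 2 and paraspinal subgroup 1 library 1, so p-values measure the spread between libraries.

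Library totals ran from 16282605 to 22218382 counts in GEM-PNST, 18474071 to 24314222 in paraspinal and 9900759 to 17594164 in neurofibroma libraries. All GEM-PNST and paraspinal libraries came from 1 sequencing run and the neurofibromas from another 2 runs (libraries 1 to 6 and 7 to 12), so run, the Ink4a/Arf allele and tumor type cannot be told apart in a comparison with neurofibroma. Some libraries stood apart in composition. The summed level of 15 sensory neuron markers was 42.95 CPM (a gene's counts relative to the TMM-corrected library total) in neurofibroma library 4 and 2716 to 15000 CPM in the other 11 neurofibromas. It was 63.62 to 483.8 CPM in GEM-PNST and 4472 to 7488 CPM in paraspinal libraries, and 14 of the 15 markers fell in GEM-PNST against neurofibroma. Scn10a, a nociceptor sodium channel, had 0 counts in all 4 GEM-PNST libraries. The summed level of 10 Schwann cell markers was 62.4 to 1039 CPM in GEM-PNST, 6430 to 13750 CPM in paraspinal and 2218 to 10900 CPM in neurofibroma libraries, so the GEM-PNST libraries hold little of the RNA that defines the lineage in which DhhCre acts. In GEM-PNST library 3, salivary and epithelial markers summed to 38880 CPM. In bulk tissue, fewer cells of a type and less RNA per cell cannot be told apart, and the part of cell composition in the results below was not tested.

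Promoters of nuclear respiratory genes are known targets of the factors NRF1 and GABPA, which help to keep their expression coordinated. RefSeq windows (GRCm38.p6) of 250 bases before the start were matched for 81 of the 101 genes, and both strands were searched. The NRF1 motif (GCGCA and GCGC with any 1 base between them) was present in 13 of the 81 windows (16.05%), against 3.86% of all 27018 promoters. The GABPA motif CCGGAAG was present in 15 (18.5%), against 7.05% of all. The HIF motif ACGTGC was present in 2 (2.47%, against 4.91%) and the YY1 motif AAGATGGCG in 0 (0.0%, against 0.607%). The windows were also richer in G and C, with a median of 57.6% against 52.0%. The windows of 4 genes on which the results turn are shown, with motif matches in capitals. Ndufa8 (chr2:36049339-36049588, minus strand) and Cox6b1 (chr7:30626115-30626364, minus strand) are among the subunit genes that rose most. Sdha (chr13:74350241-74350490, minus strand) and Atp5b (chr10:128083057-128083306, plus strand) did not follow their partner subunits. For Sdha this was seen only before the length and GC trend described below was removed. The Ndufa8 window holds 1 NRF1 match, the Cox6b1 window 1 GABPA match on the opposite strand, and the Sdha window 3 NRF1 matches. None of the searched letters occur in the Atp5b window.
Ndufa8: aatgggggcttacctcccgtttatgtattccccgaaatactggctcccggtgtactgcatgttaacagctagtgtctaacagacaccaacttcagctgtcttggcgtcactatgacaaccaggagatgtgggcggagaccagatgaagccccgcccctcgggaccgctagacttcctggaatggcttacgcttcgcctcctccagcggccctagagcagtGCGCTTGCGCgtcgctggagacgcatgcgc
Cox6b1: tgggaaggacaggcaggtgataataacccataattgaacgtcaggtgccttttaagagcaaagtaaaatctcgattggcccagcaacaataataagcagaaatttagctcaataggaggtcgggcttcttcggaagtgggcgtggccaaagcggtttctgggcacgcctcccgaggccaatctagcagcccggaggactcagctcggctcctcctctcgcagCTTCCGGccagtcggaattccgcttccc
Sdha: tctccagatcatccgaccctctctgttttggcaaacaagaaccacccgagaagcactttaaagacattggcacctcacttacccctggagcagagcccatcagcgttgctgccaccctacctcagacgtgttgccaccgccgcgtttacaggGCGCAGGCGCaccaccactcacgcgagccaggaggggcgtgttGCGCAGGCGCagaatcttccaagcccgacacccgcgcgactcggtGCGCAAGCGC
Atp5b: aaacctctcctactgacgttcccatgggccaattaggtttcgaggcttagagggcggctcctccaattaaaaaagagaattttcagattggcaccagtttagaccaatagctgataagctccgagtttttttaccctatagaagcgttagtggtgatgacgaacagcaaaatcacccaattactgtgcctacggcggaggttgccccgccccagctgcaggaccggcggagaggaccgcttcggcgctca
A match of letters is a description and not a measured binding site.

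The level of these genes differed between the tumor types. The 101 genes together took 1.454%, 1.315%, 1.258% and 0.8625% of all counts in GEM-PNST libraries 1 to 4. Their share was 1.446% and 1.438% in paraspinal subgroup 2, 0.8622% and 0.9065% in subgroup 1, and 0.3733% to 1.011% in neurofibromas. After TMM scaling, their summed level was 21850, 14840, 12230 and 11340 CPM in the GEM-PNST libraries, 12970 and 12740 CPM in paraspinal subgroup 2, 6742 and 7409 CPM in subgroup 1, and from 3316 CPM (library 4) over a median of 6473 to 10080 CPM (library 10) in neurofibromas. All 4 GEM-PNST libraries and both subgroup 2 libraries lay above every neurofibroma, while the subgroup 1 libraries lay inside the neurofibroma range. GEM-PNST library 1 was the highest of its group in 72 of the 98 tested genes. Its TMM factor of 0.6656 was the lowest of the 20, which lifts its CPM relative to its share of counts. Among neurofibromas, library 4 was the lowest in 84 genes and library 10 the highest in 63.

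**Figure D1:**
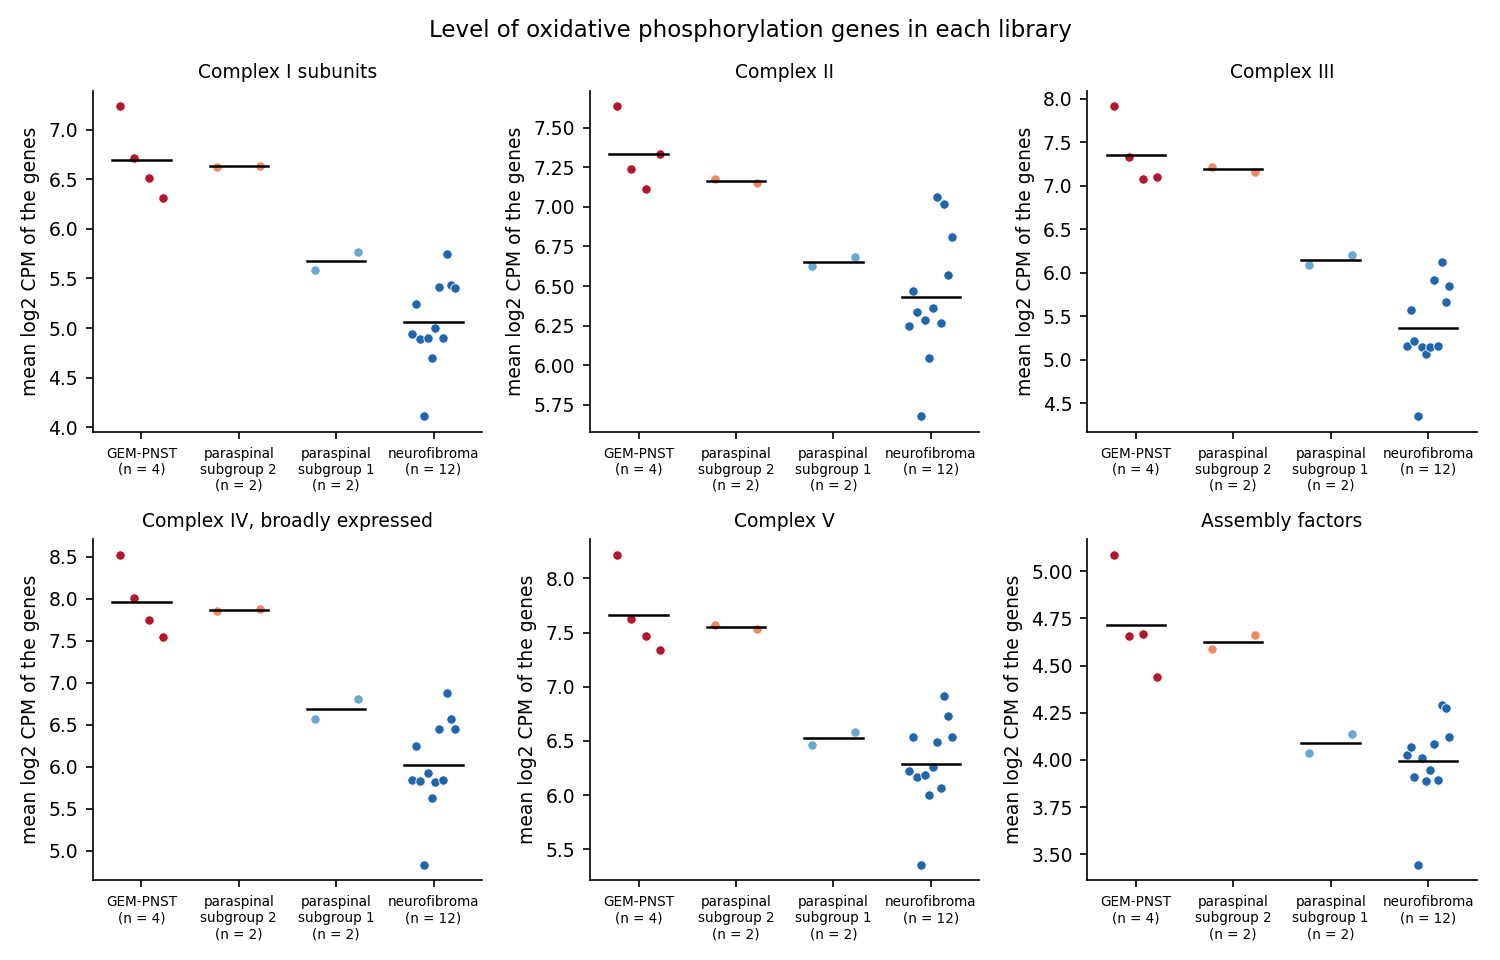
Mean log2 CPM of the genes of each complex (y axis) in each library, for GEM-PNST (n = 4), paraspinal subgroup 2 (n = 2), paraspinal subgroup 1 (n = 2) and neurofibroma (n = 12). Points are libraries and bars are group means. For complex I subunits the GEM-PNST libraries sit between 6.31 and 7.24, subgroup 2 at 6.63 and 6.64, subgroup 1 at 5.58 and 5.77, and the neurofibromas between 4.11 and 5.75.

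Per kilobase of transcript, the highest level in GEM-PNST was that of Cox4i1, the broadly used subunit 4 of complex IV, at 893 ± 391 CPM per kb (SD, n = 4). Cox4i1 was also the highest in paraspinal tumors, at 429 ± 173 CPM per kb (SD, n = 4), where Atp5b followed at 399.9 CPM per kb, within that spread. In neurofibromas Atp5b, the catalytic beta subunit of F1, stood at 928 ± 327 CPM per kb (SD, n = 12), and the next gene, Cox6a1, at 202 CPM per kb. The median over the genes was 125.8 CPM per kb in GEM-PNST, 82.19 in paraspinal and 38.75 in neurofibroma libraries.

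GEM-PNST were first set against paraspinal tumors, which carry the same alleles and were sequenced in the same run. None of the 98 genes passed edgeR's quasi-likelihood test at a Benjamini-Hochberg adjusted p of 0.05, where 10.2% of all 16589 genes did (2.48% higher and 7.69% lower). At an unadjusted p under 0.05 there were 6 genes, 4 with higher and 2 with lower values. DESeq2 called 3 genes higher (Atp5g2, Cox4i2 and Cox7a2l) and 2 lower (Ndufs1 and Atp5s), where 29.6% of all genes were called, and limma-voom 0, where 17.0% were. With all 20 libraries in 1 fit 36 genes rose, where 23.1% of all genes did. The median log2 fold change was 0.48, against 0.00 over all genes, and 85 of the 98 values were above 0. In 5 genes all 4 GEM-PNST libraries lay above all 4 paraspinal libraries and in 2 genes below, where 11.2% and 16.4% of all genes did so. The result depended on the paraspinal subgroup: against subgroup 1 alone the median was 1.05 and 4 genes rose (Uqcrb, Ndufa2, Atp5l and Cox5a), where 2.76% of all genes did, and against subgroup 2 alone it was 0.13 and no gene passed, where 0.368% of all genes did, all of them lower. Without GEM-PNST library 1 the median against all paraspinal libraries was 0.30.

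Against neurofibromas, 81 of the 98 genes rose in GEM-PNST and 5 fell, by the same edgeR test, where 35.0% of all genes rose and 38.1% fell. The median log2 fold change was 1.52, against -0.14 over all genes. In 64 of the 81 risen genes the groups did not overlap, which was so for 21.3% of all genes in the upward direction. Against the neurofibromas of each run alone, 81 rose and 2 fell (libraries 1 to 6, where 31.5% and 33.6% of all genes did) and 69 rose and 6 fell (libraries 7 to 12, where 31.2% and 33.4% did). Paraspinal tumors showed 62 genes higher and 5 lower than neurofibromas, where 30.2% of all genes were higher and 29.2% lower. The median was 0.97, against -0.01 over all genes, and 25 of the 62 had groups that did not overlap, where 18.4% of all genes lay wholly above. Subgroup 2 alone gave 68 higher and 2 lower genes with a median of 1.33, where 60.1% of all genes were called in either direction. Subgroup 1 alone gave 29 higher and 6 lower with a median of 0.38, where 44.7% were called. Both comparisons share the neurofibroma libraries.

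**Figure D2:**
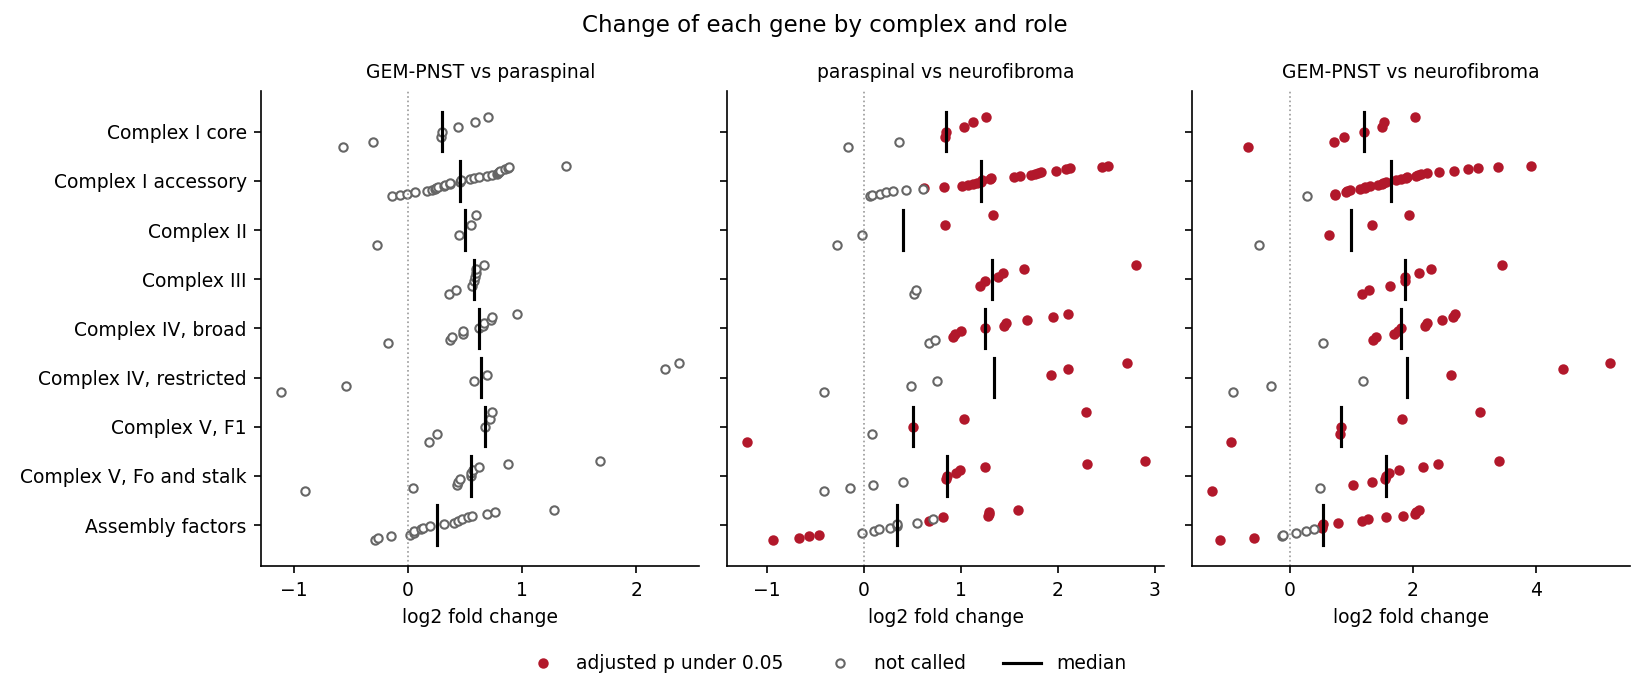
Log2 fold change (x axis) of each of the 98 genes by complex and role (y axis) in 3 comparisons, with genes at an edgeR adjusted p under 0.05 filled and black bars for the median of each role. No point is filled for GEM-PNST against paraspinal tumors, 67 are for paraspinal tumors against neurofibromas, and 86 are for GEM-PNST against neurofibromas.

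The comparisons with neurofibroma carry a trend over transcript length and GC content in all genes, and the other comparisons carry one over length. These genes are short: their median transcript was 908 bp, against 2430 bp for all genes, with a GC content of 50.56% against 49.17%. Across the 98 genes, the rank correlation of the log2 fold change with length was -0.45 in both comparisons with neurofibroma and -0.21 between GEM-PNST and paraspinal tumors (a description across genes that share libraries). In 16402 genes of all kinds it was -0.35, -0.33 and -0.28. When a smooth trend over length and GC was removed from each library, 35 genes rose and 20 fell in GEM-PNST against neurofibroma, where 32.2% and 33.3% of all genes did, and the median was 0.10. In that fit the genes as a whole thus lay near the background. For paraspinal against neurofibroma 43 rose and 10 fell, where 22.7% and 20.8% of all genes did, with a median of 0.46. For GEM-PNST against paraspinal tumors 7 fell and 0 rose, where 9.34% and 4.61% of all genes did, with a median of -0.24. The 7 were Ndufs1, Ndufa5, Ndufb3, Ndufb8, Ndufa4, Atp5k and Atp5s. After the removal, the rank correlation with length across the 98 genes was 0.515 in GEM-PNST against paraspinal tumors, and 0.041 in all genes. With GC content it was -0.40 (GEM-PNST) and -0.479 (paraspinal) against neurofibroma, and 0.033 and -0.026 in all genes. In these genes the removal thus left a dependence on length or GC. Values after removal of the smooth trend are called trend-removed below, and which of the 2 scales is nearer to the tissue was not tested.

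**Figure D3:**
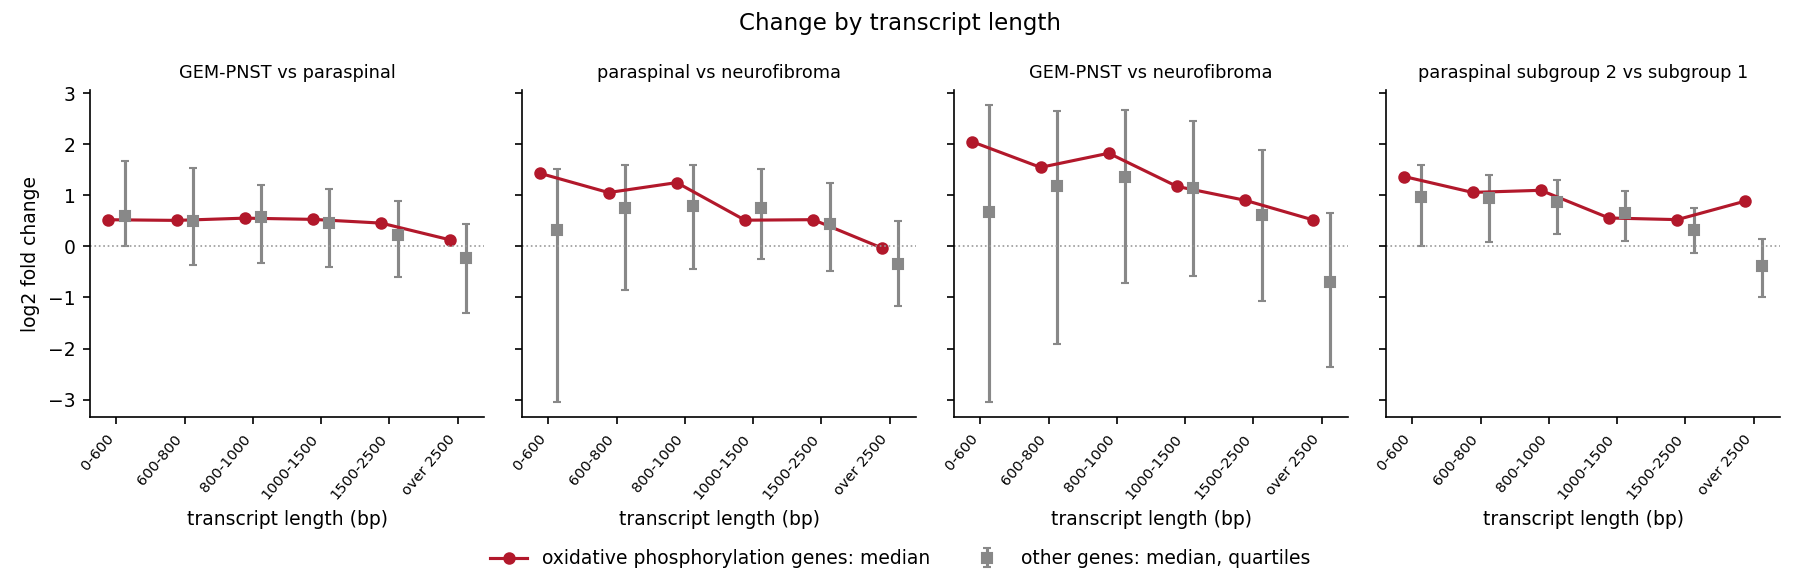
Log2 fold change (y axis) by transcript length in bp (x axis, 6 classes) in 4 comparisons. Joined points are medians of the oxidative phosphorylation genes, and squares with bars are medians and quartiles of the other genes. In GEM-PNST against neurofibroma the medians of the oxidative phosphorylation genes go from 2.05 in transcripts of up to 600 bp to 0.52 in those over 2500 bp, and those of other genes from 0.67 to -0.70 over the same classes.

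Complex I subunits were mostly higher in both comparisons with neurofibroma. Of 7 core subunits, which carry the flavin and iron-sulfur centres, 6 rose and 1 fell in GEM-PNST against neurofibroma, and 5 rose in paraspinal tumors against neurofibroma. Of 28 accessory subunits, which surround the core, 27 rose in GEM-PNST and 21 in paraspinal tumors, where 35.0% and 30.2% of all genes did. Trend-removed, 1 core subunit rose and 5 fell in GEM-PNST against neurofibroma, so that most of the core turned direction, and 12 accessory subunits rose and 3 fell, where 32.2% and 33.3% of all genes did. In paraspinal tumors 1 core subunit then rose and 2 fell, and 17 accessory subunits rose and 1 fell, where 22.7% and 20.8% of all genes did. The accessory subunit not called in GEM-PNST was Ndufa10, at a log2 fold change of 0.29.

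Ndufa6 (chr15:82350140-82354322), an accessory subunit of the matrix arm, had the largest rise among the complex I subunits in GEM-PNST against neurofibroma. It stood at 642, 151, 142 and 115 CPM in GEM-PNST, 128 and 129 CPM in paraspinal subgroup 2, 53.2 and 60.9 CPM in subgroup 1, and 10.1 to 24.1 CPM (median 16.5) in neurofibromas. Every GEM-PNST and paraspinal library lay above every neurofibroma, and GEM-PNST library 1 stood far above the other 3. The log2 fold change was 3.93 ± 0.32 (SE, edgeR adjusted p = 1.97e-08) for GEM-PNST against neurofibroma and 2.45 ± 0.22 (adjusted p = 7.39e-08) for paraspinal against neurofibroma. GEM-PNST and paraspinal libraries overlapped, with 1.38 ± 0.61 (adjusted p = 0.156). Trend-removed, the 2 differences from neurofibroma were 1.86 and 1.63 and remained past the threshold.

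Ndufa8 (chr2:36036326-36049406), an accessory subunit imported into the space between the membranes, stood at 141, 265, 107 and 110 CPM in GEM-PNST. It stood at 113 and 108 CPM in paraspinal subgroup 2, 47.6 and 49.5 CPM in subgroup 1 and 8.33 to 27.8 CPM (median 18.1) in neurofibromas. Neither tumor type overlapped with the neurofibromas, and the log2 fold changes were 3.06 (GEM-PNST, edgeR adjusted p = 1.84e-08) and 2.12 (paraspinal, adjusted p = 2.06e-06). Ndufb7 (chr8:83566671-83571626), an accessory subunit of the membrane arm, showed the same order, at 192, 177, 115 and 86.2 CPM in GEM-PNST, 103 and 106 CPM in subgroup 2, 49.1 and 50.3 CPM in subgroup 1, and 8.62 to 19.96 CPM in neurofibromas. Its log2 fold change against neurofibroma was 3.38 in GEM-PNST and 2.52 in paraspinal tumors. Ndufa3 rose by 2.90 in GEM-PNST and Ndufa5 by 2.08 in both tumor types, all on the log2 scale.

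The core subunits Ndufs1 and Ndufv1, which sit together in the NADH-oxidising part of the enzyme, moved in opposite directions. Ndufv1 (chr19:4007384-4012806), which binds NADH and the flavin, stood at 95.7, 128, 85.4 and 82.1 CPM in GEM-PNST, 124 and 109 CPM in paraspinal subgroup 2, 106 and 118 CPM in subgroup 1, and 24.2 to 76.5 CPM (median 49.8) in neurofibromas. Ndufs1 (chr1:63143596-63176833), the largest iron-sulfur subunit, stood at 61.2, 49.9, 47.1 and 56.1 CPM in GEM-PNST, 67.5 and 63.2 CPM in subgroup 2, 76.9 and 93.7 CPM in subgroup 1, and 53.4 to 123 CPM (median 84.4) in neurofibromas. Every GEM-PNST and paraspinal library was above every neurofibroma in Ndufv1, and all 4 GEM-PNST libraries were below all paraspinal libraries in Ndufs1. Ndufv1 rose by 0.88 ± 0.23 (GEM-PNST, edgeR adjusted p = 0.00235) and 1.12 ± 0.21 (paraspinal, adjusted p = 0.000193) on the log2 scale. Ndufs1 fell by 0.67 ± 0.23 in GEM-PNST against neurofibroma (adjusted p = 0.0163), with -0.57 ± 0.22 against paraspinal tumors (adjusted p = 0.117). The direction of Ndufv1 depended on the trend: trend-removed, its values were -0.90 and -0.12. Ndufs1 was -0.79 trend-removed against paraspinal tumors (adjusted p = 0.0376) and lost its call against neurofibroma (adjusted p = 0.156), as it did with limma-voom (adjusted p = 0.124) and against neurofibroma libraries 1 to 6 alone (adjusted p = 0.113).

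Complex II, which also works in the citric acid cycle, divided between its subunits before the trend was removed. Sdhb (chr4:140961203-140979193), the iron-sulfur subunit, stood at 233, 160, 127 and 160 CPM in GEM-PNST, 136 and 124 CPM in paraspinal subgroup 2, 89.2 and 88.1 CPM in subgroup 1, and 20.2 to 67.6 CPM (median 41.0) in neurofibromas. Sdha (chr13:74322254-74350280), the flavoprotein that binds succinate and partners Sdhb, stood at 203, 155, 175 and 240 CPM in GEM-PNST, 203 and 212 CPM in subgroup 2, 232 and 243 CPM in subgroup 1, and 144 to 465 CPM (median 247) in neurofibromas. Sdhb was above every neurofibroma in all 8 other libraries, while the Sdha values of all groups overlapped. Sdhb rose by 1.94 ± 0.23 in GEM-PNST (edgeR adjusted p = 9.05e-07) and 1.33 ± 0.22 in paraspinal tumors (adjusted p = 6.24e-05) on the log2 scale. Sdha gave -0.50 (adjusted p = 0.0942) and -0.28 (adjusted p = 0.344).

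The membrane anchors of complex II are Sdhc and Sdhd. Sdhc was at 135 to 178 CPM in GEM-PNST, 67.4 to 145 CPM in paraspinal and 44.3 to 82.7 CPM in neurofibroma libraries, and rose by 1.34 and 0.83 on the log2 scale (edgeR adjusted p = 1.82e-06 and 0.00294), the paraspinal call being lost with subgroup 1 alone (adjusted p = 0.383) and against neurofibroma libraries 7 to 12 alone (adjusted p = 0.0603). Sdhd was at 217, 117, 122 and 129 CPM in GEM-PNST, 110 and 114 CPM in subgroup 2, 67.8 and 72.9 CPM in subgroup 1, and 52.4 to 161 CPM in neurofibromas. All 4 GEM-PNST libraries lay above the 4 paraspinal ones, at 0.60 (adjusted p = 0.197), and inside the neurofibroma range, at 0.64 (adjusted p = 0.0266). The call for Sdhd was lost without GEM-PNST library 1 (adjusted p = 0.174) and with DESeq2 (adjusted p = 0.0825), and its trend-removed value was -0.33. Trend-removed, Sdhb was 0.06 in GEM-PNST and 0.22 in paraspinal tumors against neurofibroma, both outside the threshold (adjusted p = 0.826 and 0.45). Sdha was not called on that scale either, so these partners no longer differed in call. Of the 4 complex II genes, 1 then rose and 0 fell in each comparison with neurofibroma. Of all genes, 32.2% rose and 33.3% fell in GEM-PNST, and 22.7% and 20.8% in paraspinal tumors.

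**Figure D4:**
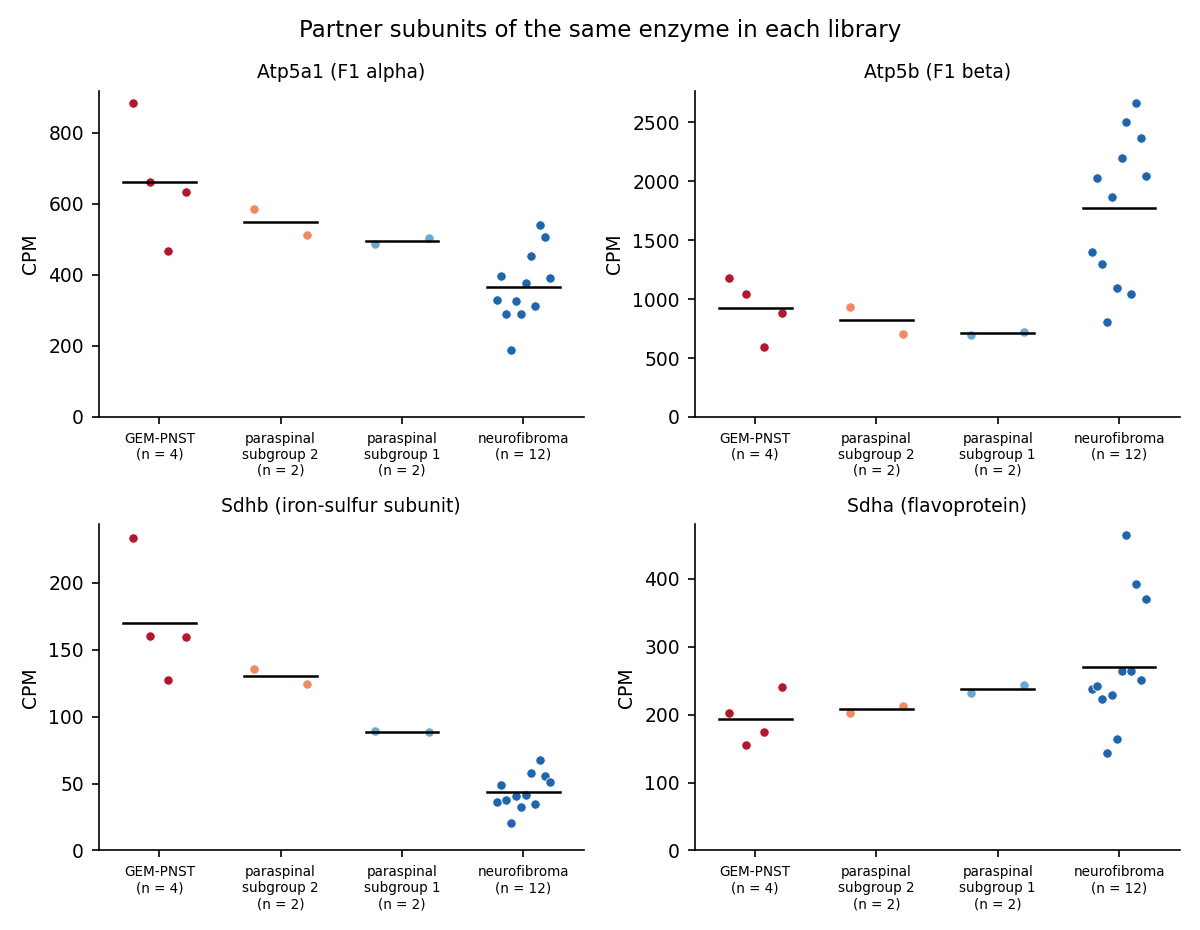
Level in CPM (y axis) of the partner subunits Atp5a1 and Atp5b of F1 and Sdhb and Sdha of complex II in each library, by group (GEM-PNST n = 4, paraspinal subgroup 2 n = 2, paraspinal subgroup 1 n = 2, neurofibroma n = 12), with bars for group means. Atp5b runs up to 1182 CPM in GEM-PNST and 2668 CPM in neurofibromas, whereas Atp5a1 runs up to 884 and 540 CPM.

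All 8 tested subunits of complex III rose in GEM-PNST against neurofibroma (median log2 fold change 1.88) and 6 of 8 in paraspinal tumors (median 1.32). Of all genes, 35.0% and 30.2% rose in these comparisons. Trend-removed, 4 rose and 1 fell in GEM-PNST, where 32.2% and 33.3% of all genes did. In paraspinal tumors 4 then rose and 0 fell, where 22.7% and 20.8% of all genes did. Uqcrb (chr13:66900617-66905378), which binds ubiquinone close to cytochrome b, had the largest change of the 8 subunits. It stood at 191, 143, 127 and 144 CPM in GEM-PNST, 150 and 145 CPM in paraspinal subgroup 2, 41.1 and 42.4 CPM in subgroup 1, and 7.30 to 22.3 CPM (median 12.7) in neurofibromas. The GEM-PNST and subgroup 2 libraries formed 1 range, subgroup 1 lay below it and the neurofibromas lowest, with no overlap among the 3 levels. The log2 fold change was 3.46 ± 0.22 in GEM-PNST (edgeR adjusted p = 8.68e-10) and 2.80 ± 0.31 in paraspinal tumors (adjusted p = 7.16e-07), and trend-removed it was 2.76 and 3.21. Uqcrc1, a core protein on the matrix side, was at 161 to 308 CPM in GEM-PNST, 133 to 178 CPM in paraspinal and 20.8 to 82.6 CPM in neurofibroma libraries and rose by 2.30 and 1.65 (adjusted p = 5.41e-07 and 1.35e-05). Uqcrfs1, the Rieske iron-sulfur subunit that passes electrons on to cytochrome c1, was at 64.9 to 152 CPM in GEM-PNST, 53.5 to 73.7 CPM in paraspinal and 21.6 to 74.4 CPM in neurofibroma libraries. It rose by 1.17 in GEM-PNST (adjusted p = 0.0012) and was at 0.51 in paraspinal tumors (adjusted p = 0.101). Neither Uqcrc1 nor Uqcrfs1 was called in GEM-PNST when the trend was removed (adjusted p = 0.171 and 0.219).

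Of the 11 broadly used subunits of complex IV, 10 rose in GEM-PNST against neurofibroma (median 1.81) and 9 in paraspinal tumors (median 1.25). The shares of all genes that rose were 35.0% and 30.2%. Trend-removed, 5 rose and 1 fell in GEM-PNST, where 32.2% and 33.3% of all genes did. In paraspinal tumors 6 then rose and 1 fell, where 22.7% and 20.8% of all genes did. Cox4i1 (chr8:120668222-120674207), through which ATP is known to restrain the enzyme, stood at 886, 991, 465 and 392 CPM in GEM-PNST, 425 and 459 CPM in paraspinal subgroup 2, 206 and 223 CPM in subgroup 1, and 55.5 to 191 CPM (median 109) in neurofibromas. GEM-PNST libraries 1 and 2 lay above libraries 3 and 4, which overlapped with subgroup 2, and no library of either tumor type overlapped with the neurofibromas. The log2 fold change was 2.47 ± 0.27 in GEM-PNST (edgeR adjusted p = 3.98e-07) and 1.44 ± 0.26 in paraspinal tumors (adjusted p = 0.00015). Trend-removed it was 0.04 and -0.11. Cox6b1 (chr7:30616861-30626151), which joins the monomers of the dimer on the outer face, kept its rise on both scales. It stood at 651, 347, 276 and 204 CPM in GEM-PNST, 308 and 314 CPM in subgroup 2, 116 and 131 CPM in subgroup 1, and 27.2 to 90.6 CPM (median 50.4) in neurofibromas. Its log2 fold changes were 2.69 and 1.95 (adjusted p = 2.11e-07 and 1.19e-05), and trend-removed 1.18 and 1.47.

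Cox5a and Cox5b, which sit beside the catalytic core, and the small subunits Cox7a2 and Cox7b were above every neurofibroma in all 4 GEM-PNST libraries, while the paraspinal libraries overlapped with the neurofibromas. Cox5a was at 138 to 187 CPM in GEM-PNST, 55.1 to 153 CPM in paraspinal and 21.2 to 104 CPM in neurofibroma libraries, and rose by 1.41 in GEM-PNST (edgeR adjusted p = 0.000285), with 0.73 in paraspinal tumors (adjusted p = 0.0652). Cox5b rose by 1.81 and 1.00, Cox7a2 by 1.69 and 1.25 and Cox7b by 1.75 and 0.94 in GEM-PNST and paraspinal tumors against neurofibroma on the log2 scale. Trend-removed, Cox5b and Cox7b kept both calls (0.71 and 0.76 for Cox5b, 1.13 and 1.25 for Cox7b), and Cox5a and Cox7a2 had none. Of the paraspinal calls, that of Cox7b was lost with limma-voom (adjusted p = 0.101), without either subgroup 2 library (adjusted p = 0.108 and 0.0589), with subgroup 1 alone (adjusted p = 0.765) and against neurofibroma libraries 7 to 12 alone (adjusted p = 0.143). That of Cox5b was lost without subgroup 2 library 1 (adjusted p = 0.0635), with subgroup 1 alone (adjusted p = 0.324) and against neurofibroma libraries 7 to 12 alone (adjusted p = 0.0791), and that of Cox7a2 with subgroup 1 alone (adjusted p = 0.357). Cox5a passed in paraspinal tumors without either subgroup 1 library (adjusted p = 0.0226 and 0.0316) and against neurofibroma libraries 1 to 6 alone (adjusted p = 0.0211).

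Cox7c, another small subunit, rose by 2.66 in GEM-PNST and 2.10 in paraspinal tumors against neurofibroma on the log2 scale, without overlap, and also trend-removed (1.67 and 2.20). Cox6a1 rose by 1.35 and 0.91 and was lower on the trend-removed scale, at -1.13 (edgeR adjusted p = 0.00145) and -0.64 (adjusted p = 0.0442). Its paraspinal call was lost with limma-voom (adjusted p = 0.093), without either subgroup 2 library (adjusted p = 0.0901 and 0.056), with subgroup 1 alone (adjusted p = 0.574) and against neurofibroma libraries 7 to 12 alone (adjusted p = 0.132). Cox8a was at 258 to 382 CPM in GEM-PNST, all above the 116 to 254 CPM of paraspinal libraries, with a log2 fold change of 0.66 (adjusted p = 0.203). Ndufa4, now assigned to complex IV, was at 0.55 in GEM-PNST (adjusted p = 0.166) and 0.67 in paraspinal tumors (adjusted p = 0.113) against neurofibroma. It passed against neurofibroma libraries 1 to 6 alone in both tumor types, at 0.96 (adjusted p = 0.0302) and 1.01 (adjusted p = 0.0281), and in paraspinal tumors without subgroup 1 library 1 (adjusted p = 0.0456). Trend-removed it rose by 0.98 in paraspinal tumors against neurofibroma (adjusted p = 0.0172) and fell by 1.31 in GEM-PNST against paraspinal tumors (adjusted p = 0.0211).

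The tissue-restricted isoforms of complex IV replace a broad subunit in particular tissues or at low oxygen. Cox4i2 (chr2:152754173-152765037), an isoform known from lung and from pericytes, stood at 40.8, 2.70, 2.68 and 11.7 CPM in GEM-PNST, 4.13 and 4.04 CPM in paraspinal subgroup 2, 1.53 and 1.46 CPM in subgroup 1, and 0.296 to 1.61 CPM (median 0.498) in neurofibromas. Ndufa4l2 (chr10:127514967-127517154), a paralogue of Ndufa4 known as a target of HIF-1, stood at 89.9, 5.93, 14.4 and 11.7 CPM in GEM-PNST, 11.6 and 7.18 CPM in subgroup 2, 1.90 and 0.928 CPM in subgroup 1, and 0.0858 to 2.92 CPM (median 0.704) in neurofibromas. All 4 GEM-PNST and both subgroup 2 libraries lay above every neurofibroma in both genes, and GEM-PNST library 1 stood apart from the other 3. In GEM-PNST against neurofibroma, Cox4i2 rose by 4.45 ± 0.56 (edgeR adjusted p = 2.33e-06) and Ndufa4l2 by 5.20 ± 0.66 (adjusted p = 2.64e-06) on the log2 scale. Trend-removed, the values were 2.07 (adjusted p = 0.00225) and 2.72 (adjusted p = 0.00103). Against paraspinal tumors they were 2.26 (adjusted p = 0.137) and 2.38 (adjusted p = 0.157). Paraspinal tumors against neurofibroma had 3 of the 6 tested restricted isoforms called higher (Cox4i2, Ndufa4l2 and Cox6b2), where 30.2% of all genes were. Trend-removed, 0 of the 6 were called higher there, where 22.7% of all genes were.

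Per kilobase, Ndufa4l2 made up 22.1%, 3.54%, 5.38% and 4.86% of the sum of Ndufa4 and Ndufa4l2 in GEM-PNST, 0.427% to 3.21% in paraspinal and 0.0307% to 1.53% in neurofibroma libraries. The GEM-PNST shares lay above all others. Cox4i2 made up 0.283% to 4.59% of its pair in GEM-PNST, and only libraries 1 and 4 lay above the 1.13% reached among neurofibromas. The summed level of 10 smooth muscle and pericyte markers was 1692, 346, 717 and 1675 CPM in GEM-PNST, 250 to 834 CPM in paraspinal and 191 to 1180 CPM in neurofibroma libraries, with none of them at 0 counts throughout a group. The summed level of 11 hypoxia targets was 2657, 3084, 571 and 1003 CPM in GEM-PNST, 547 to 893 CPM in paraspinal and 543 to 1013 CPM in neurofibroma libraries. The part of either in these isoforms was not tested.

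Cox6b2, an isoform known from sperm, was at 53.8, 4.86, 6.15 and 2.58 CPM in GEM-PNST, 15.8 and 14.3 CPM in paraspinal subgroup 2, 5.90 and 5.04 CPM in subgroup 1, and 0.686 to 5.93 CPM in neurofibromas. It rose by 2.62 in GEM-PNST (edgeR adjusted p = 0.000785), a call that was lost without GEM-PNST library 1 (adjusted p = 0.167). The muscle isoforms Cox6a2, Cox7a1 and Cox8b were not called in any comparison, though Cox7a1 fell in GEM-PNST against paraspinal tumors (adjusted p = 0.0467) and Cox8b in GEM-PNST against neurofibroma (adjusted p = 0.0286) once GEM-PNST library 3 was left out. In GEM-PNST all 3 were highest in library 3, at 30.2, 10.02 and 14.6 CPM, against 0.879 to 5.97, 1.40 to 2.57 and 0.203 to 0.646 CPM in the other 3 libraries. Library 3 also had the highest sum of 15 skeletal muscle markers in GEM-PNST, 1631 CPM against 151 to 774 CPM. In neurofibromas these isoforms reached 18.7, 15.7 and 26.7 CPM. Neurofibroma muscle markers summed to 112 to 15460 CPM, and markers of adipose tissue, where Cox7a1 and Cox8b are also used, to 4.44 to 2113 CPM.

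**Figure D5:**
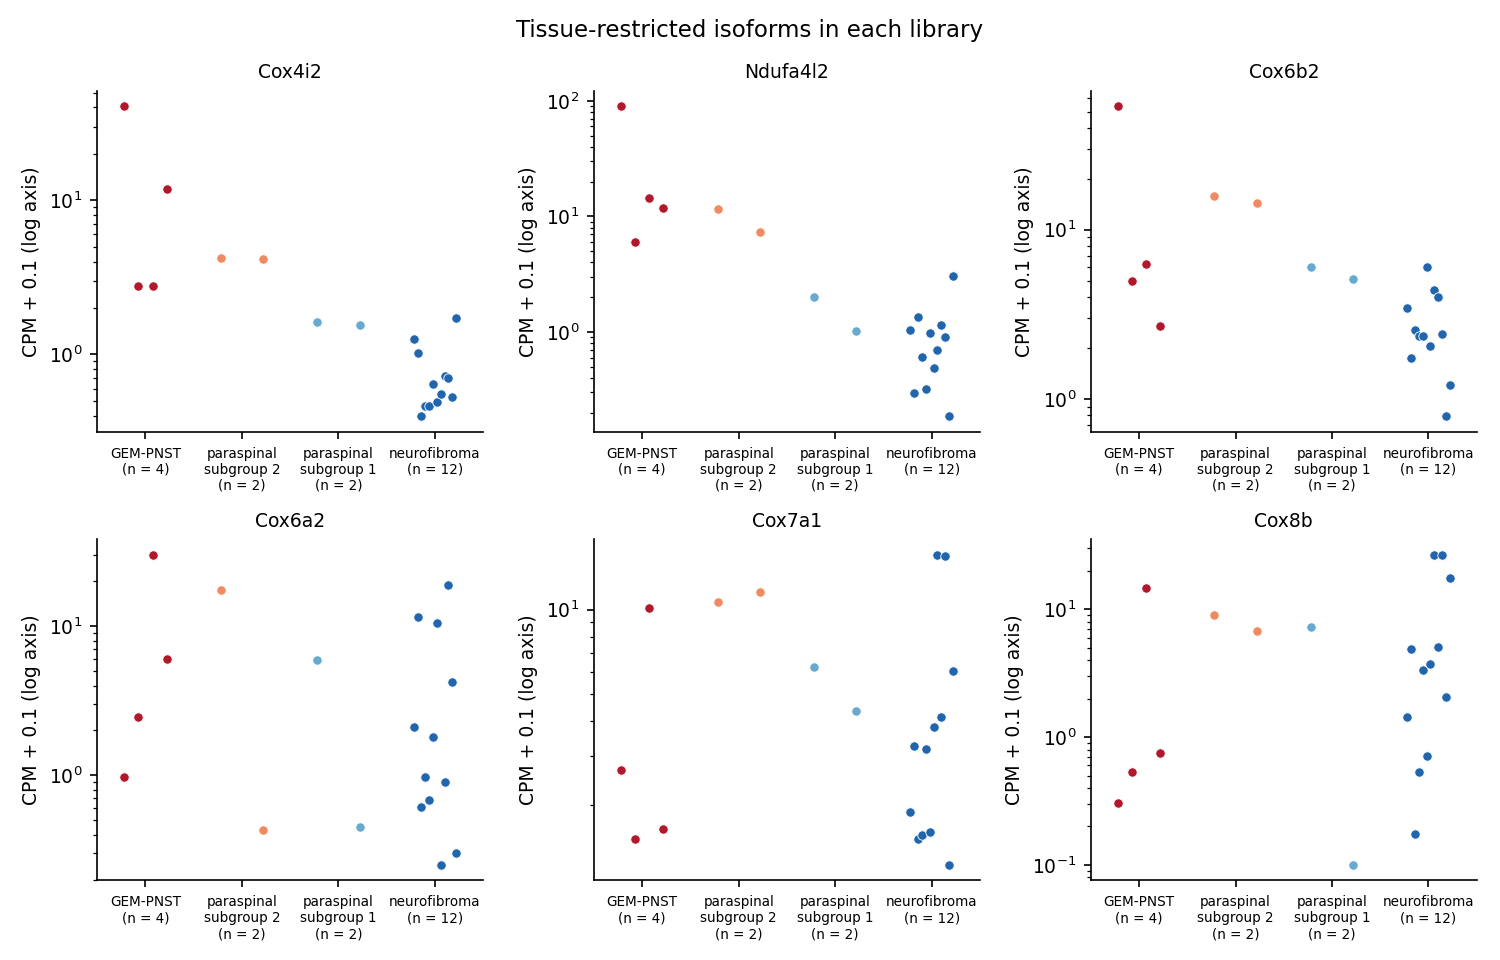
Level of the 6 tested tissue-restricted isoforms of complex IV in each library, as CPM + 0.1 on a log axis (y axis), by group (GEM-PNST n = 4, paraspinal subgroup 2 n = 2, paraspinal subgroup 1 n = 2, neurofibroma n = 12), with points for libraries. Cox4i2 and Ndufa4l2 are above all neurofibromas in the 4 GEM-PNST and both subgroup 2 libraries, and Cox6a2, Cox7a1 and Cox8b overlap in all groups.

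In complex V, the subunits of F1 did not move together. Atp5b (chr10:128083273-128090391), the catalytic beta subunit, stood at 1182, 1044, 594 and 885 CPM in GEM-PNST, 934 and 708 CPM in paraspinal subgroup 2, 699 and 724 CPM in subgroup 1, and 806 to 2668 CPM (median 1947) in neurofibromas. Atp5a1, its alpha partner in the same ring, stood at 884, 660, 467 and 634 CPM in GEM-PNST, 586 and 512 CPM in subgroup 2, 486 and 502 CPM in subgroup 1, and 188 to 540 CPM (median 352) in neurofibromas. Atp5b was lower and Atp5a1 higher in the GEM-PNST and paraspinal tumors on average, with overlap in each. On the log2 scale Atp5b fell by 0.96 ± 0.32 in GEM-PNST (edgeR adjusted p = 0.0129) and by 1.21 ± 0.31 in paraspinal tumors (adjusted p = 0.00263), and trend-removed it was -1.84 and -1.68. Atp5a1 rose by 0.83 ± 0.23 (adjusted p = 0.00337) and 0.51 (adjusted p = 0.0437), and was not called when the trend was removed (adjusted p = 0.0642 and 0.172). The Atp5b call in GEM-PNST was lost against neurofibroma libraries 1 to 6 alone (adjusted p = 0.107) and without GEM-PNST libraries 1 and 3 (adjusted p = 0.0719). The paraspinal Atp5a1 call was lost without either subgroup 2 library (adjusted p = 0.122 and 0.0594), and both Atp5a1 calls were lost against neurofibroma libraries 7 to 12 alone (adjusted p = 0.0507 for GEM-PNST and 0.316 for paraspinal tumors).

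The small epsilon subunit Atp5e (chr2:174461072-174464105), part of the central stalk, stood at 396, 237, 300 and 147 CPM in GEM-PNST, 233 and 234 CPM in paraspinal subgroup 2, 70.3 and 72.2 CPM in subgroup 1, and 16.1 to 44.4 CPM (median 30.8) in neurofibromas. It rose by 3.10 and 2.29 on the log2 scale without overlap. Of the 11 genes grouped under Fo and the peripheral stalk, with the coupling factor Atp5s among them, 9 rose and 1 fell in GEM-PNST against neurofibroma. In paraspinal tumors 7 rose. Of all genes, 35.0% rose and 38.1% fell in GEM-PNST, and 30.2% rose in paraspinal tumors. Trend-removed, 3 rose and 2 fell in GEM-PNST, where 32.2% and 33.3% of all genes did. In paraspinal tumors 4 then rose and 1 fell, where 22.7% and 20.8% of all genes did. Atp5j2 (chr5:145183698-145192062), the f subunit of Fo, was at 299, 227, 220 and 169 CPM in GEM-PNST, 218 and 232 CPM in subgroup 2, 89.9 and 96.4 CPM in subgroup 1, and 9.42 to 34.6 CPM (median 21.6) in neurofibromas. It rose by 3.39 (edgeR adjusted p = 2.66e-09) and 2.89 ± 0.27 (adjusted p = 1.21e-07) without overlap, and trend-removed by 2.19 and 2.42. Atp5s, a coupling factor and the member that fell, gave -1.27 in GEM-PNST (adjusted p = 0.00169) and -0.41 in paraspinal tumors (adjusted p = 0.213).

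The proton-carrying c ring of Fo is built from 1 protein encoded by 3 genes that differ in their import sequence. Atp5g2 (chr15:102662864-102672352) was at 420, 183, 126 and 143 CPM in GEM-PNST, 88.7 and 99.6 CPM in paraspinal subgroup 2, 34.5 and 29.9 CPM in subgroup 1, and 31.8 to 59.9 CPM (median 50.2) in neurofibromas. All 4 GEM-PNST libraries lay above every other library, and subgroup 1 lay at the low end of the neurofibromas. It rose by 2.16 in GEM-PNST against neurofibroma (edgeR adjusted p = 4.02e-07) and was at 1.69 ± 0.54 against paraspinal tumors (adjusted p = 0.0767, with 0.0164 by DESeq2 and 0.000103 with all 20 libraries in 1 fit), and 0.40 in paraspinal tumors against neurofibroma (adjusted p = 0.19). Trend-removed, the GEM-PNST and paraspinal values against neurofibroma were -0.17 and -1.02. Atp5g1 was not called in any comparison on the main scale, at 132 to 214 CPM in GEM-PNST, 54.6 to 148 CPM in paraspinal and 28.3 to 196 CPM in neurofibroma libraries. Trend-removed it rose by 1.63 in GEM-PNST against neurofibroma (adjusted p = 0.000461). That value rests on the transcript length used for Atp5g1, 4715 bp, against 731 bp for Atp5g2 and 714 bp for Atp5g3. Atp5g3 rose by 1.56 in GEM-PNST and 0.95 in paraspinal tumors against neurofibroma, and both calls were lost when the trend was removed (adjusted p = 0.371 and 0.0515). Its paraspinal call was also lost with subgroup 1 alone (adjusted p = 0.513) and against neurofibroma libraries 7 to 12 alone (adjusted p = 0.0623).

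The 18 assembly factors, which help build the complexes without being part of them, moved less. In GEM-PNST against neurofibroma 11 rose and 2 fell with a median log2 fold change of 0.54, and in paraspinal tumors 6 rose and 4 fell with a median of 0.34. In paraspinal tumors these shares (33.3% and 22.2%) are near those of all genes (30.2% and 29.2%). In GEM-PNST they were 61.1% and 11.1%, against 35.0% and 38.1%. On the trend-removed scale 6 of the 18 rose and 5 fell in GEM-PNST, where 32.2% and 33.3% of all genes did. Paraspinal tumors then had 9 higher and 3 lower, where 22.7% and 20.8% of all genes were. Which tumor type lay near all genes thus depended on the scale. Cox7a2l (chr17:83501918-83517330) is known from work on supercomplexes of complexes III and IV, which were not measured here. It was at 801, 251, 338 and 187 CPM in GEM-PNST, 158 and 198 CPM in paraspinal subgroup 2, 129 and 119 CPM in subgroup 1, and 74.1 to 112 CPM (median 95.8) in neurofibromas. Neither tumor type overlapped with the neurofibromas, and it rose by 2.04 and 0.67 (edgeR adjusted p = 1.35e-06 and 0.000483), with 1.28 ± 0.46 (adjusted p = 0.0994) in GEM-PNST against paraspinal tumors. Cox15 (chr19:43733254-43753000), which makes the haem A of complex IV, was the 1 called gene whose GEM-PNST and paraspinal libraries all lay below the neurofibromas. It was at 23.6, 19.3, 14.3 and 22.4 CPM in GEM-PNST, 23.2 and 15.3 CPM in subgroup 2, 25.7 and 25.9 CPM in subgroup 1, and 34.8 to 50.5 CPM (median 43.8) in neurofibromas. It fell by 1.14 ± 0.15 (adjusted p = 5.47e-06) and 0.94 ± 0.15 (adjusted p = 3.29e-05), and trend-removed it was -0.03 and -0.31 and no longer called.

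Between the paraspinal subgroups, the values of most of these genes were separated. In 89 of the 98 genes both subgroup 2 libraries lay above both subgroup 1 libraries, and in 4 below, where 34.6% and 34.9% of all genes did so. The median log2 fold change was 0.99, against -0.01 over all genes. No gene of any kind passed edgeR's test with the spread shared with GEM-PNST (0.0% of all genes), while 2100 genes of all kinds and 49 of the 98 had an unadjusted p under 0.05. DESeq2 called 26 of the 98 higher in subgroup 2, where 3.42% of all genes were, limma-voom 74, where 14.8% were, and edgeR on the 4 paraspinal libraries alone 73, where 14.3% were. Trend-removed, the median was 0.09. Across the 98 genes the rank correlation of this difference with transcript length was -0.69, and across 16402 genes of all kinds it was -0.52. Both were the strongest of the 4 comparisons run. In transcripts of up to 600 bp the median difference was 1.37 in these genes and 0.96 in other genes.

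Genes that work with these complexes did not all follow them. Of 25 other oxidative phosphorylation genes outside the naming rule, 19 rose and 6 fell in GEM-PNST against neurofibroma, and 14 rose and 5 fell in paraspinal tumors, where 35.0% and 38.1% of all genes did in GEM-PNST and 30.2% and 29.2% in paraspinal tumors. Trend-removed, 8 rose and 6 fell in GEM-PNST, near the 32.2% and 33.3% of all genes. In paraspinal tumors 13 of the 25 then rose and 3 fell, where 22.7% and 20.8% of all genes did. Atpaf1, a chaperone of the F1 beta subunit, was at 2.13 to 4.20 CPM in GEM-PNST, 3.64 and 4.04 CPM in paraspinal subgroup 2, 8.67 and 11.9 CPM in subgroup 1, and 16.2 to 53.5 CPM in neurofibromas. It fell by 3.45 in GEM-PNST (edgeR adjusted p = 3.44e-07) and by 2.25 in paraspinal tumors (adjusted p = 5.95e-05) on the log2 scale, and trend-removed by 3.69 and 2.22. Tmem70, an assembly factor of ATP synthase, rose by 1.09 in GEM-PNST against neurofibroma. The electron carriers of complex III and IV, chosen after their values were seen, also divided: Cyc1 (cytochrome c1) rose by 1.503 and 0.761, and Cycs (cytochrome c) fell by 1.34 and 1.51 in GEM-PNST and paraspinal tumors.

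The 17 genes of the citric acid cycle showed 7 higher and 3 lower in GEM-PNST against neurofibroma with a median log2 fold change of 0.07, and 3 higher and 2 lower in paraspinal tumors with a median of -0.02, where 35.0% and 38.1% of all genes did so for GEM-PNST and 30.2% and 29.2% for paraspinal tumors. Trend-removed, 4 rose and 6 fell in GEM-PNST with a median of -0.47, where 32.2% and 33.3% of all genes did. In paraspinal tumors 4 then rose and 2 fell with a median of -0.02, where 22.7% and 20.8% of all genes did. The medians of the 98 oxidative phosphorylation genes on that scale were 0.10 and 0.46. Suclg2, a subunit of succinyl-CoA ligase, was at 52.6, 80.6, 36.3 and 82.8 CPM in GEM-PNST and 10.7 to 17.4 CPM in paraspinal libraries and rose by 2.08 (edgeR adjusted p = 0.0102) between them. Ogdh, a subunit of the alpha-ketoglutarate dehydrogenase complex, fell by 0.90 in GEM-PNST against neurofibroma (adjusted p = 0.000935).

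Among 19 regulators of mitochondrial biogenesis, 10 rose and 6 fell in GEM-PNST against neurofibroma (52.6% and 31.6%, with 35.0% and 38.1% of all genes) and 3 rose and 5 fell in paraspinal tumors (15.8% and 26.3%, with 30.2% and 29.2% of all genes). Trend-removed, 9 rose and 8 fell in GEM-PNST (47.4% and 42.1%, with 32.2% and 33.3% of all genes). In paraspinal tumors 4 then rose and 5 fell (21.1% and 26.3%, with 22.7% and 20.8% of all genes). Ppargc1a, the coactivator PGC-1alpha that is known to drive these promoters, was at 0.00, 1.89, 0.546 and 0.162 CPM in GEM-PNST, 6.60 and 6.05 CPM in paraspinal subgroup 2, 15.0 and 23.6 CPM in subgroup 1, and 39.2 to 95.2 CPM (median 56.3) in neurofibromas. The GEM-PNST, paraspinal and neurofibroma libraries did not overlap. Ppargc1a fell by 6.47 in GEM-PNST (edgeR adjusted p = 6.51e-07) and by 2.22 in paraspinal tumors (adjusted p = 3.75e-05) on the log2 scale, with -4.37 in GEM-PNST against paraspinal tumors (adjusted p = 0.0531). Esrra and Gabpa, chosen after their values were seen, encode a partner receptor of PGC-1alpha and the DNA-binding subunit of the factor that reads CCGGAAG. Esrra was at 31.7 to 51.0 CPM in GEM-PNST, 28.7 to 40.1 CPM in paraspinal and 2.49 to 6.15 CPM in neurofibroma libraries, and rose by 3.31 and 3.07. Gabpa was at 20.1 to 39.1 CPM in GEM-PNST, 24.0 to 42.9 CPM in paraspinal and 73.7 to 147 CPM in neurofibroma libraries, and fell by 2.04 and 1.81. Myc, which also acts on nuclear genes of mitochondria, was at 27.5 to 110 CPM in GEM-PNST and rose by 1.87 against paraspinal tumors (adjusted p = 0.0406).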

How the data were processed

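Total RNA of 20 tumors was sequenced as Nextera XT libraries, per the labels' protocols. The deposited table holds counts of reads per gene that the authors made against mm10, and the submitters' processing notes name HISAT2, TopHat and featureCounts, while versions, annotation and strand setting are not given in the sources used here. Counting without strand cannot separate overlapping or antisense genes, and genes with near-identical processed copies, such as the 3 Atp5g genes, are uncertain where reads could be split. Each column was tested to hold whole numbers, and each was matched to its sample through the sample's description in the labels. The sequencing run was read from the alignment file names in the deposited sample sheet.

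Genes were tested with edgeR 4.0.16 (R 4.3.3) by quasi-likelihood F tests with robust spread on TMM-scaled counts, after edgeR's filter kept 16589 of 24062 genes. Benjamini-Hochberg adjustment ran over all tested genes, and an adjusted p under 0.05 was a call. Each comparison used the libraries of its groups, and the subgroup comparison shared its spread with GEM-PNST. CPM divide a gene's counts by the TMM-corrected library total. A prior count of 2 was added for log2 CPM. Standard errors come from the fold change and its F value. Gene positions, transcript lengths and GC contents were read from GENCODE M21 on GRCm38 (mm10), and the trend was removed with per-library spline offsets. A single annotated transcript gave the length and GC content of each gene, and which transcripts the tumors use was not tested. Levels of different genes were compared per kilobase of transcript.

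The genes and lists were chosen with earlier results of these data known. Named were, for each comparison, the most changed genes (up to 10 higher and 10 lower) among those called without overlap, a set of core subunits and isoform pairs, and of each other list the genes with the largest and smallest change in GEM-PNST against paraspinal tumors at a mean log2 CPM of at least 3. Ndufa10, the genes called against subgroup 1 alone and those called only with the trend removed were named after their values were seen. Alternatives were RLE factors, 2 other filters, DESeq2 1.42.0, limma-voom 3.58.1 with sample weights, all 20 libraries in 1 fit, the replicate number as a block, libraries left out, each subgroup and each neurofibroma run alone, and, added later, a fit without robust spread. No pair of libraries in a group looked like a repeat deposit, as chi-square over its degrees of freedom was at least 22.63. The tests were tried on simulated data. Precision is limited by the 4 GEM-PNST and 4 paraspinal libraries.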

Additional observations from a re-analysis of the deposited data

Results flagged for a closer look

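The 4 libraries of a group were tested in 92 cases, for named genes and for the means of each complex and of the assembly factors. Chance alone exceeds Dixon's 95% critical value in about 5% of groups of independent, normally distributed values. These genes share libraries, their CPM need not be normal and the paraspinal group joins the subgroups, so the rate for these tests is not known. In 9 of the 92 tests, all of them of genes, 1 library lay farther from the nearest other than the critical value allows. For 6 genes this was GEM-PNST library 1, which was the high one. It stood at 641.6 CPM in Ndufa6 (other GEM-PNST libraries 115.2 to 151.3), 453.8 CPM in Cox7b (201.3 to 231.8), 217.2 CPM in Sdhd (117.0 to 129.0), 214.0 CPM in Atp5g1 (131.6 to 141.1), 89.94 CPM in Ndufa4l2 (5.935 to 14.44) and 53.83 CPM in Cox6b2 (2.583 to 6.153). GEM-PNST library 3 was the high one in the muscle isoforms Cox8b, at 14.64 CPM (0.2029 to 0.6458 in the others), and Cox7a1, at 10.02 CPM (1.403 to 2.57). Among the paraspinal tumors, subgroup 2 library 1 was high in Atp5b, at 933.8 CPM (699.1 to 723.8 in the other 3).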

How the results depend on the processing

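For 134 named gene and comparison values, 2448 alternatives were computed: 2221 kept their side of the threshold, 123 lost the call, 86 gained one and 18 reversed. Of the 2221, 101 differed in sign with no call in either fit. Values for which DESeq2 gave no adjusted p are left out.

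The counts of called genes are given here with the share of all genes called in the same fit. For GEM-PNST against paraspinal tumors the count (0, 10.2%) became 5 with DESeq2 (29.6%) and 36 with all 20 libraries in 1 fit (42.6%). It became 7 with the trend removed (13.9%), 4 against subgroup 1 alone (8.24%) and 1 without GEM-PNST libraries 1 and 3 (13.7%). With single libraries left out it was 0 to 1 (1 without GEM-PNST library 3, 13.9%). The count of paraspinal tumors against neurofibroma (67, 59.4%) became 35 with subgroup 1 alone (44.7%). That of GEM-PNST against neurofibroma (86, 73.1%) became 55 with the trend removed (65.5%). Subgroup 2 against subgroup 1 (0, 0.0%) became 73 with the 4 paraspinal libraries alone (29.3%), 26 with DESeq2 (8.19%) and 74 with limma-voom (32.9%). With all 20 libraries in 1 fit it became 8 (7.42%). All 8 were higher in subgroup 2, where 2.95% of all genes were.

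Deviations of same-numbered libraries from their group means correlated at -0.259 to 0.168, which gave no sign of pairing. Pairing is not excluded, as within a paraspinal subgroup of 2 libraries the deviations mirror each other. With the number as a block, 0 genes passed in GEM-PNST against paraspinal tumors (5.06% of all genes), 9 in paraspinal tumors (16.6%) and 73 in GEM-PNST (43.4%) against neurofibroma. With block and trend removal together the counts were 2 (7.52%), 18 (7.28%) and 27 (23.3%).

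With the trend removed, reversed log2 fold changes in GEM-PNST against neurofibroma were -0.90 (Ndufv1), -0.33 (Sdhd), -1.13 (Cox6a1), -0.23 (Cox8a) and -0.17 (Atp5g2). In paraspinal tumors against neurofibroma they were -0.12 (Ndufv1), -0.11 (Cox4i1), -0.64 (Cox6a1) and -1.02 (Atp5g2). With block and trend removal together they were -0.52 (Ndufv1), -0.006 (Sdhd), -0.70 (Cox6a1), -0.41 (Cox6b2) and -0.26 (Atp5g2) in GEM-PNST, and -0.085 (Ndufv1), -0.029 (Cox4i1) and -0.51 (Cox6a1) in paraspinal tumors. With subgroup 1 alone, Atp5g2 was -0.55 in paraspinal tumors. The cause was not tested.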

Other observations

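Beside the subunits themselves, the proteins of the mitochondrial ribosome, which make the subunits encoded in mitochondrial DNA, were mostly higher too. Of 77 tested genes of this ribosome, 71 rose and 2 fell in GEM-PNST against neurofibroma, with a median log2 fold change of 1.85, and 60 rose and 4 fell in paraspinal tumors, with a median of 1.03, where 35.0% and 38.1% of all genes did so in GEM-PNST and 30.2% and 29.2% in paraspinal tumors. Against paraspinal tumors, 1 of the 77 rose in GEM-PNST, with a median of 0.68, where 2.48% of all genes rose. With the length and GC trend removed, 47 rose and 4 fell in GEM-PNST against neurofibroma, where 32.2% and 33.3% of all genes did. Mrpl52 was at 117 to 389 CPM in GEM-PNST, 29.7 to 121 CPM in paraspinal and 7.13 to 14.4 CPM in neurofibroma libraries, and rose by 4.33 against neurofibroma by edgeR's test (adjusted p = 1.66e-10).

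The cytosolic ribosome gave larger values. Of 83 tested genes, 49 rose and 0 fell in GEM-PNST against paraspinal tumors, with a median of 1.89, where 2.48% and 7.69% of all genes did, and 52 rose and 0 fell with the trend removed, where 4.61% and 9.34% did. Against neurofibroma 81 rose in GEM-PNST and 70 in paraspinal tumors, where 35.0% and 30.2% of all genes did. Their summed level was 196500, 128700, 78570 and 71600 CPM in GEM-PNST libraries 1 to 4, 39100 and 40240 CPM in paraspinal subgroup 2, 18530 and 15410 CPM in subgroup 1, and 8823 to 16260 CPM in neurofibromas. The order of the GEM-PNST libraries is that of the summed oxidative phosphorylation genes, and these sums share the same library totals and TMM factors.

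Of 11 hypoxia targets, 6 rose and 0 fell in GEM-PNST against neurofibroma (35.0% and 38.1% of all genes) and 4 rose and 1 fell in paraspinal tumors (30.2% and 29.2% of all genes), and 0 passed in GEM-PNST against paraspinal tumors by edgeR's test, with a median of 1.22. Egln3, an oxygen sensor that is itself induced by low oxygen, was at 22.4, 208, 4.61 and 19.5 CPM in GEM-PNST, 5.46 to 6.48 CPM in paraspinal and 3.77 to 9.80 CPM in neurofibroma libraries. GEM-PNST library 2 was thus the highest in Egln3, while library 1 was the highest in Ndufa4l2.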
